A study of Mus musculus with 6 samples.

Results

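Muscle cells left without the red lineage label were compared between the Twist2 and the Pax7 tracing lines. They were chosen by sample label as the tomato-negative fraction of each line, which makes 3 of the 6 samples of the study. Their values were taken over all 4939 genes of the deposited CPM table, in which reads are scaled to a common library total. Tw2neg (n = 2) came from Tw2-CreERT2/+;R26-tdTO+ mice and Pax7neg (n = 1) from Pax7-CreERT2/+;R26-tdTO+ mice. The labelled cells of the same lines, Tw2pos (n = 2) and Pax7pos (n = 1), served to place the comparison and also entered the filter on level and the estimate of the spread. All mice were adult C57BL/6 and carried a tamoxifen-inducible Cre and the tdTO reporter. All had received 3 tamoxifen treatments on alternate days, 10 days before the muscle was digested and sorted. In each line Cre is driven by the gene in its name. A cell turns red only where that gene was active when tamoxifen was given, and its descendants keep the label. Adult hind limb muscle was the source in all samples. The RNA protocol of the labels speaks of tdTO+ cells alone, and only the titles and descriptions name the negative fractions. The sources used here do not give the sex of the mice, how many animals went into a sample, or whether replicates were separate animals. The p-values therefore cover only the spread among these samples, and that spread may be technical. In bulk RNA, fewer cells of a type and less RNA per cell cannot be told apart.

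Digested limb muscle releases several kinds of mononuclear cells. Satellite cells are the muscle stem cells and express Pax7. Fibro-adipogenic progenitors are interstitial fibroblast-like cells that make matrix and can form fat or scar. Endothelial cells, pericytes, tendon cells, macrophages and other blood cells make up most of the rest. Twist2 is a mesenchymal transcription factor. By design, the sort takes Twist2-lineage cells out of Tw2neg and Pax7-lineage cells out of Pax7neg, so each negative fraction still holds the cells that the other line labels.

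The recovered reads numbered 13205751 and 13005707 over 24062 genes in the Tw2neg libraries. The Pax7neg library held 7565797 reads in the 4939 genes of the CPM table, of an effective size of 12445892 reads. The table had been cut by the authors' rule before deposit. Every gene in it reaches 10 CPM in 3 libraries at the least and lies 2-fold or more from Tw2neg in a comparison with another group. Pax7neg itself lay at least 2-fold from the Tw2neg mean in 664 genes, and 118 genes entered through that comparison alone. The other 4275 genes entered through a labelled group. Of the effective library, the table holds 50.04% and 46.28% in Tw2neg and 60.79% in Pax7neg, so shares and counts below describe this selection and not the transcriptome.

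Few genes passed the planned test between the unlabelled cells of the lines, which with 1 Pax7neg library does not show that they were alike. Over the 6 libraries 4790 genes averaged 10 CPM or more, and limma passed 11 of them at an adjusted p under 0.05, or 0.23%. Higher in Tw2neg were 7 genes (0.146%), 5 of them on the satellite cell list, and higher in Pax7neg were 4 (0.0835%). At an unadjusted p under 0.05 the count was 749 (15.6%), with 277 higher in Tw2neg (5.78%) and 472 higher in Pax7neg (9.85%). With edgeR's quasi-likelihood test on recovered reads no gene passed, where 711 had an unadjusted p under 0.05, and DESeq2 passed 244. Fam132b passed in 13 of the 14 other settings tried, and the other calls named below in 8 to 10 (of 13 for Tmsb10, which 1 setting leaves out). The count was 1038 without Tw2neg replicate 1, 855 without Tw2neg replicate 2, and 43 and 46 without Tw2pos replicates 1 and 2. All 11 genes were among the calls each time. Each of these fits takes its spread from 1 pair of Twist2 libraries and keeps the lone Pax7neg library, so this is no independent check. Pax7neg was no farther from either Tw2neg library than those were from each other by the median size of difference. That median was 0.454 and 0.467 on the log2(CPM + 1) scale for Pax7neg against replicates 1 and 2, and 0.491 between the replicates. Differences of at least 2-fold were more frequent across the lines, in 791 and 811 genes, than between the Tw2neg replicates, in 600. The Tw2pos replicates had 71 such genes. All log2 differences below are Tw2neg minus Pax7neg on the log2(CPM + 1) scale, which understates the change of genes near 0, and their median over the 4790 genes was -0.07. Pax7neg stood above both Tw2neg libraries in 37.7% of the genes, below both in 27.7% and between them in 34.5%. These shares are the background for each gene group below, and the groups were chosen with earlier results of these data known. With 1 library against 2, an exact permutation test of a single gene cannot give a p below 0.333. The limma test takes its spread from both pairs of Twist2 libraries and assumes that a lone Pax7 library varies like them. The pairs were unlike, with 2-fold differences in 600 genes for Tw2neg and 71 for Tw2pos. Pooling them can lower the spread set against the unlabelled cells, so the unadjusted counts here and below may be too high.

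The genes of the Cre drivers came first. Pax7 had 45.7 and 14.8 CPM in Tw2neg and 0.402 CPM in Pax7neg, where 5 reads were counted (exact Poisson 95% interval 0.130 to 0.938 CPM). The Pax7neg library lay far below both Tw2neg libraries, which themselves differed. The difference of 4.28 (SE 0.64) just missed the threshold, at a limma adjusted p of 0.0512. Twist2 has no line in the CPM table, and its 22.0 and 23.2 normalised counts in Tw2neg set no comparison with Pax7neg. Twist1, a close relative of Twist2, had 13.5 and 7.54 CPM in Tw2neg and 30.7 CPM in Pax7neg (difference -1.51, limma adjusted p = 0.162).

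Satellite cell genes made up 5 of the 11 calls, by a list chosen with earlier results of these data known. Of 21 genes listed, 17 were tested. Pax7neg lay below both Tw2neg libraries in 13 of them, against 27.7% of all genes, and above both in 2. The median difference was 1.40, with 1.90 against replicate 1 alone and 1.04 against replicate 2 alone. All 5 calls were higher in Tw2neg, and 11 members had an unadjusted p under 0.05, all in that direction, against 5.78% of all genes. Myod1, the myogenic transcription factor (chr7:46376474-46379099, plus strand), had 31.9 and 36.2 CPM in Tw2neg and 1.61 CPM in Pax7neg, from 20 reads. The Tw2neg libraries were close to each other and 21.2-fold above Pax7neg on average (difference 3.75, SE 0.47, limma adjusted p = 0.0483). Cdh15, the adhesion protein M-cadherin (chr8:122847966-122867397, plus strand), had 39.1 and 16.6 CPM against 0.643 CPM, from 8 reads. Its difference was 4.02 (SE 0.52, limma adjusted p = 0.0483), and replicate 1 was well above replicate 2. Fgfr4, a fibroblast growth factor receptor (chr13:55152640-55168759, plus strand), had 46.0 and 18.1 CPM against 0.884 CPM, from 11 reads (difference 3.99, SE 0.53, limma adjusted p = 0.0483). Replicate 1 was again the higher of the Tw2neg libraries. Asb5, an ankyrin-repeat protein (chr8:54529580-54587842, plus strand), had 63.5 and 62.5 CPM against 2.49 CPM, from 31 reads. The nearly equal Tw2neg libraries stood 25.3-fold above Pax7neg (difference 4.20, SE 0.44, limma adjusted p = 0.0371). Gal, which encodes the neuropeptide galanin (chr19:3409915-3414544, minus strand), had 45.0 and 27.0 CPM against 1.69 CPM, from 21 reads. Pax7neg was below both Tw2neg libraries (difference 3.74, SE 0.42, limma adjusted p = 0.0412).

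**Figure D1:**
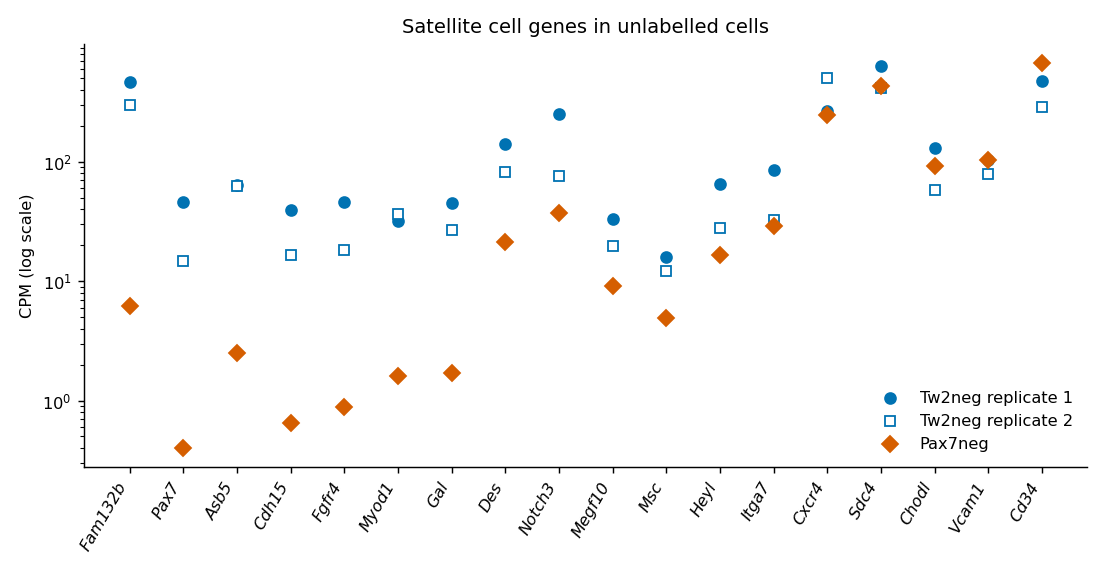
Level of satellite cell genes, with Fam132b, in CPM on a log axis for each unlabelled library, with Pax7neg as 1 point and the Tw2neg replicates as 2 points per gene. The 5 satellite cell genes that passed and Pax7 lie between 0.402 and 2.49 CPM in Pax7neg, all below both Tw2neg libraries, while genes such as Cd34 and Sdc4, which other cells also express, do not separate this way.

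Members of the list that other muscle cells share separated less. Des, the intermediate filament of muscle, had 142 and 82.3 CPM in Tw2neg and 21.4 CPM in Pax7neg (difference 2.28, limma adjusted p = 0.0738). Notch3, a Notch receptor that mural cells also carry, had 252 and 76.2 CPM against 37.2 CPM (difference 1.87). Pax7neg was below both Tw2neg libraries in these genes, and neither passed. The cell-surface proteins Cd34, Sdc4 and Vcam1 did not follow the satellite genes. Cd34 had 474 and 285 CPM against 668 CPM, Sdc4 634 and 411 CPM against 429 CPM, and Vcam1 103 and 78.8 CPM against 103 CPM. In Cd34 Pax7neg was the highest library, and in Sdc4 it lay between the others. Fibre contractile genes were nearly absent from the table, with 2 of 22 tested. Acta1, skeletal actin, had 7.05 and 4.16 CPM in Tw2neg and 4.50 CPM in Pax7neg, and so was low in all 3 libraries.

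Outside the satellite list, Fam132b also passed as higher in Tw2neg. This gene, now named Erfe, encodes erythroferrone, a secreted regulator of iron metabolism (chr1:91366430-91374217, plus strand). It had 467 and 299 CPM in Tw2neg and 6.19 CPM in Pax7neg, from 77 reads. Its fold of 61.9 came with a difference of 5.70 (SE 0.40, limma adjusted p = 0.00375), the largest of the genes tested. It was also called higher in Pax7pos than in Tw2pos, with a Tw2pos minus Pax7pos difference of -5.84, as were the 5 satellite cell genes and 25.7% of all genes. Fam132b had 6752 CPM in Pax7pos and 97.6 and 140 CPM in Tw2pos, and Myod1 993 CPM against 8.75 and 19.8 CPM. For both, the order of levels was Pax7pos, Tw2neg, Tw2pos and last Pax7neg. The satellite cell list summed to 2467 and 1762 CPM in Tw2neg and 1666 CPM in Pax7neg, since shared genes such as Cd34 and Sdc4 dominate the sum.

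Genes of fibro-adipogenic progenitors were higher in Pax7neg in most cases, but none passed. Of 22 listed, 21 were tested, and Pax7neg stood above both Tw2neg libraries in 17, against 37.7% of all genes, and below both in none. The median difference was -1.19, or -0.82 and -1.36 against replicates 1 and 2. An unadjusted p under 0.05 was reached by 13 members, all higher in Pax7neg, against 9.85% of all genes. Dcn, the matrix proteoglycan decorin, had 3403 and 2465 CPM in Tw2neg and 7294 CPM in Pax7neg (difference -1.33, limma adjusted p = 0.28, or a difference of -0.66 with quantile normalization). Lum, which encodes lumican, had 245 and 180 CPM against 734 CPM (difference -1.80, limma adjusted p = 0.108). Pi16, a marker of progenitor fibroblasts, had 214 and 163 CPM against 410 CPM. Pax7neg was the highest library in all 3. The receptor Pdgfra, the usual sorting marker of these cells, had 269 and 176 CPM against 264 CPM, with Pax7neg inside the Tw2neg range. The list's sum was 22321 and 16902 CPM in Tw2neg and 43828 CPM in Pax7neg, so both fractions held transcripts of these genes.

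Matrix and tendon genes followed the same order, with a larger gap between the Tw2neg libraries. In the matrix list of 30, all tested, Pax7neg was above both Tw2neg libraries in 22 and below both in none, with a median difference of -0.91 (-0.51 and -1.28 against replicates 1 and 2, and -0.42 with quantile normalization). Col1a1, a chain of fibrillar collagen, had 5426 and 2498 CPM in Tw2neg and 10914 CPM in Pax7neg (difference -1.57, or -0.59 with quantile normalization). Postn, the matrix protein periostin, had 353 and 149 CPM against 1195 CPM (difference -2.38, limma adjusted p = 0.116). Among basement membrane genes, Col4a1 had 1840 and 950 CPM against 1716 CPM, with Pax7neg inside the range. One inhibitor of matrix proteases passed: Timp1 (chrX:20870166-20874735, plus strand) had 55.9 and 38.8 CPM in Tw2neg and 329 CPM in Pax7neg, 6.95-fold the Tw2neg mean (difference -2.79, SE 0.36, limma adjusted p = 0.0483). Its relative Timp3 had 1015 and 487 CPM against 648 CPM, with Pax7neg between the Tw2neg libraries. Of 13 tendon genes, all tested, Pax7neg was above both Tw2neg libraries in 12. The tendon median was -1.32, with -0.64 against replicate 1 and -1.92 against replicate 2, and the replicates themselves differed by a median of 1.25. Thbs4, a tendon thrombospondin, had 3163 and 1439 CPM against 5444 CPM (difference -1.35), and Tnmd, tenomodulin, 90.6 and 34.0 CPM against 228 CPM (difference -2.02). Pax7neg was highest and replicate 2 lowest in both. No tendon gene passed, and 6 had an unadjusted p under 0.05, all higher in Pax7neg, against 9.85% of all genes.

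Mesenchymal transcription factors were mixed. Of 14 tested of 21 listed, Pax7neg was above both Tw2neg libraries in 7 and below both in 1, with a median difference of -0.50. Prrx1, a homeobox factor of limb mesenchyme, had 74.8 and 41.1 CPM in Tw2neg and 94.7 CPM in Pax7neg, and Tbx15 34.1 and 22.1 CPM against 58.7 CPM. Pax7neg was the highest library for both. Tcf4 had 260 and 159 CPM against 181 CPM, inside the range. Of 9 bone and cartilage genes tested of 11, Pax7neg was above both in 1 and below both in 4. Col2a1, the cartilage collagen, had 2564 and 1329 CPM in Tw2neg and 1238 CPM in Pax7neg (difference 0.58), and Acan, aggrecan, 192 and 97.0 CPM against 76.6 CPM. Neither passed.

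Interferon response genes stood higher in Pax7neg, and the Tw2neg libraries were close to each other. Interferon makes cells transcribe antiviral genes through a promoter element whose core is the letters GAAA, any 2 bases, and GAAA again. This motif can be read in the promoters of several members. The sequences of 4 of the 7 members with a match are shown, chosen after their values were seen. Each is the stretch of 200 bases up to the base before the gene start, on the gene's strand, from RefSeq (build GRCm38.p6). Capitals mark the motif on either strand, and the 3 matches of Isg15 overlap each other.
Ifit1 chr19:34640689-34640888 (plus strand): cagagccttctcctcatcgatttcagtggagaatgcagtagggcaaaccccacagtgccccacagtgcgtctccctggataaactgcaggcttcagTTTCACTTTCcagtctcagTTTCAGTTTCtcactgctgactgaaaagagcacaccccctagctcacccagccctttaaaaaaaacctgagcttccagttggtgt
Ifit3 chr19:34583329-34583528 (plus strand): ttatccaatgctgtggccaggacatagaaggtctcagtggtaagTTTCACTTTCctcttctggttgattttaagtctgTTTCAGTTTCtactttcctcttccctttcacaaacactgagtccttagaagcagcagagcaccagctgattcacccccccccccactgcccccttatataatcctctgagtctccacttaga
Isg15 chr4:156200819-156201018 (minus strand): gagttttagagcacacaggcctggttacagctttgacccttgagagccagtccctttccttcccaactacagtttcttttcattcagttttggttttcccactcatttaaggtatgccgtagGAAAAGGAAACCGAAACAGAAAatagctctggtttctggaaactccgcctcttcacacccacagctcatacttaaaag
Rsad2 chr12:26456453-26456652 (minus strand): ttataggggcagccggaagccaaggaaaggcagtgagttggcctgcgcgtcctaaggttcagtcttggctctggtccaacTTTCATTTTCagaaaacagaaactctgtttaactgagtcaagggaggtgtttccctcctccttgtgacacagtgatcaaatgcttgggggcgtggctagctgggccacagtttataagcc
Searched over 250 bases before to 50 after the start, on both strands, the motif was in 3.44% of 32851 promoters and in 7 of the 10 interferon genes that had a promoter in the table. A match is a description of the letters and not of binding.

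Of 22 interferon genes, 14 were tested, and Pax7neg was above both Tw2neg libraries in 13, against 37.7% of all genes, and below both in none. The median difference was -1.02, with -1.03 and -1.06 against replicates 1 and 2. None of the 14 passed the threshold, and 8 had an unadjusted p under 0.05, all higher in Pax7neg, against 9.85% of all genes. Ifit1, an antiviral RNA-binding protein, had 53.0 and 46.1 CPM in Tw2neg and 175 CPM in Pax7neg (difference -1.80, limma adjusted p = 0.0738). Rsad2, the antiviral enzyme viperin, had 59.4 and 38.8 CPM against 144 CPM, and Ifit3 25 and 20.1 CPM against 67.6 CPM. Isg15, a ubiquitin-like protein, had 70.0 and 56.7 CPM against 135 CPM. Pax7neg was above both libraries in all 4. The list summed to 775 and 747 CPM in Tw2neg and 1517 CPM in Pax7neg. Outside the list, Oasl1, an interferon-induced gene, had 32.8 and 33.8 CPM against 224 CPM (difference -2.71, limma adjusted p = 0.0512). Mnda, a line now named Ifi211, belongs to a family of interferon-induced proteins with near-identical members, so its reads are uncertain (chr1:173896345-173913046, minus strand). It had 31.7 and 32.2 CPM in Tw2neg and 203 CPM in Pax7neg, 6.34-fold higher, and it passed (difference -2.63, SE 0.36, limma adjusted p = 0.0483).

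Secreted inflammatory genes lay in the same direction. Of 23 chemokines and cytokines, 18 were tested, and Pax7neg was above both Tw2neg libraries in 16 and below both in none. The median difference was -0.99, with -1.23 and -0.94 against replicates 1 and 2. None passed, and 9 had an unadjusted p under 0.05, all higher in Pax7neg, against 9.85% of all genes. Cxcl1, a neutrophil attractant, had 345 and 233 CPM in Tw2neg and 1179 CPM in Pax7neg (difference -2.05, limma adjusted p = 0.101). Ccl2, a monocyte attractant, had 96.6 and 56.4 CPM against 352 CPM (difference -2.24, limma adjusted p = 0.0952). Ccl7, its neighbour in function, had 61.1 and 43.0 CPM against 320 CPM (difference -2.62, limma adjusted p = 0.0512). Il6, an inflammatory cytokine, had 179 and 138 CPM against 533 CPM. Pax7neg was clearly above both Tw2neg libraries in each of these. Il1b did not follow, with 281 and 483 CPM against 305 CPM. Ptx3, a secreted pattern-recognition protein (chr3:66219910-66225805, plus strand), had 121 and 129 CPM in Tw2neg and 897 CPM in Pax7neg. The Tw2neg libraries were nearly equal and Pax7neg 7.16-fold higher, and Ptx3 passed (difference -2.83, SE 0.39, limma adjusted p = 0.0483). Mmp3, a matrix-degrading protease, had 16.7 and 21.9 CPM against 183 CPM, with a difference of -3.19, the largest in that direction, but a limma adjusted p of 0.0738.

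Macrophage and monocyte genes were not uniform. Of 23 listed, 17 were tested, with Pax7neg above both Tw2neg libraries in 12 and below both in 3, and a median difference of -0.58. The complement gene C1qb, made by resident macrophages, had 110 and 69.8 CPM in Tw2neg and 226 CPM in Pax7neg, and Cd14, the endotoxin co-receptor, 256 and 302 CPM against 623 CPM. Lyz2, the lysozyme of myeloid cells, was nearly level, with 1298 and 1254 CPM against 1422 CPM. Itgam, an integrin shared with neutrophils, went the other way, with 215 and 190 CPM against 103 CPM.

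Neutrophil genes were higher in both Tw2neg libraries. Pax7neg was below both in 3 of 3 tested primary granule genes (of 5 listed), in 7 of 7 secondary granule genes (of 9) and in 7 of 8 genes of mature neutrophils (of 10), against 27.7% of all genes. The median differences were 1.66, 1.33 and 1.16, and the replicates differed from each other by medians of 0.06, 0.46 and -0.06. None of these genes passed. Mpo, the peroxidase of early granules, had 225 and 216 CPM in Tw2neg and 69.0 CPM in Pax7neg (difference 1.66, limma adjusted p = 0.14). Ngp, a secondary granule protein, had 1627 and 1327 CPM against 541 CPM (difference 1.44, limma adjusted p = 0.14). S100a9, a calcium-binding protein of mature cells, had 1665 and 1680 CPM against 799 CPM (difference 1.06). By list median, both Tw2neg libraries lay above Pax7neg at all stages, while for Il1b of the mature list Pax7neg lay between them. Prg2, the major basic protein of eosinophil granules, had 193 and 254 CPM against 36.6 CPM (difference 2.56, limma adjusted p = 0.123). Its list of mast cell, basophil and eosinophil genes, 5 tested of 10, did not follow, with a median difference of -0.15. Pax7neg was below both Tw2neg libraries in Prg2 alone and between them in the other 4. Alas2, the haem-synthesis enzyme of red cell precursors, had 76.5 and 62.1 CPM against 18.9 CPM (difference 1.81, limma adjusted p = 0.156). Markers of blood stem and progenitor cells differed by a median of 0.44 over 4 genes tested. Kit, a receptor of progenitors and mast cells, had 23.9 and 29.9 CPM against 18.4 CPM.

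Genes of the Y chromosome gave a like order. Ddx3y, an RNA helicase, had 219 and 245 CPM in Tw2neg and 82.0 CPM in Pax7neg (difference 1.49, limma adjusted p = 0.109). Kdm5d, a histone demethylase, had 30.4 and 35.5 CPM against 10.1 CPM, Uty 24.8 and 30.9 CPM against 11.7 CPM, and Eif2s3y 53.5 and 69.9 CPM against 34.8 CPM. Pax7neg was below both Tw2neg libraries in all 4, and none passed. The X-linked relative Kdm5c had 113 and 130 CPM against 125 CPM. In Pax7pos Ddx3y had 166 CPM, and in Tw2pos 246 and 233 CPM. Xist had 9.76 and 3.20 normalised counts in Tw2neg and 3.82 and 9.65 in Tw2pos, far below 10 CPM in each. It could therefore not reach 10 CPM in 3 libraries, so its lack of a line in the CPM table tells nothing of Pax7neg. The part of the mice's sex in any difference above was not tested.

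**Figure D2:**
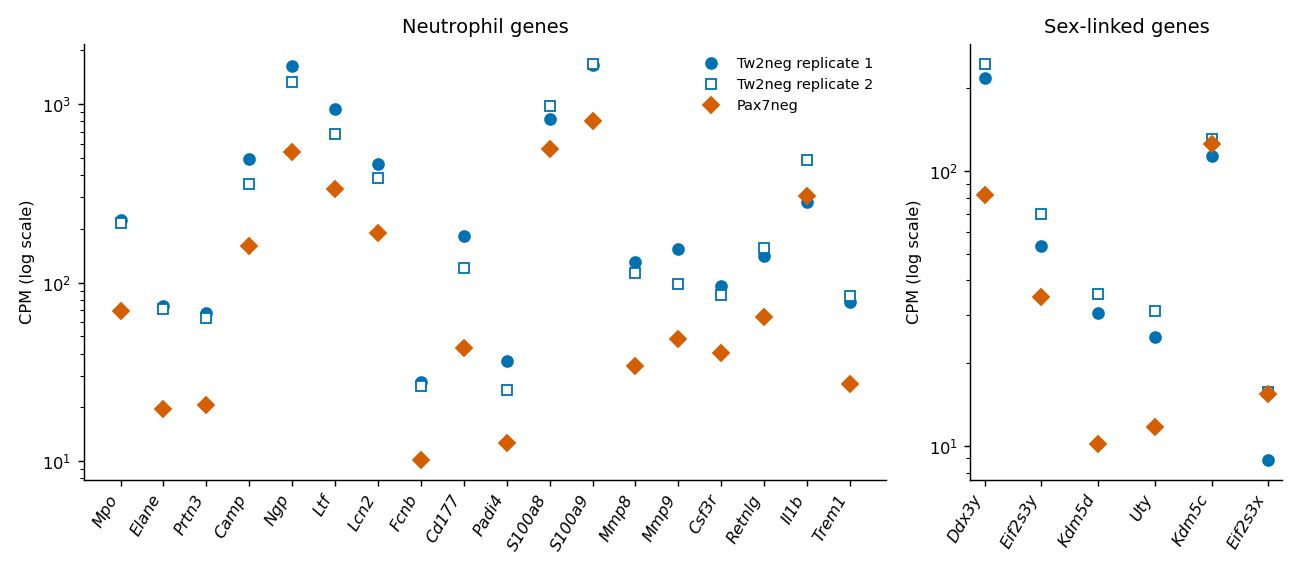
Level of neutrophil genes (left) and of sex-linked genes (right), in CPM on a log axis, 1 point for each unlabelled library. Mpo, Ngp, S100a9 and the 4 Y-linked genes lie lower in Pax7neg than in both Tw2neg replicates, while Il1b and the X-linked Kdm5c lie between them.

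Several cell types differed more between the Tw2neg replicates than between the lines. Endothelial genes, 22 tested of 23, had a median of 1.41 between replicate 1 and replicate 2. Against Pax7neg the same list had a median of 1.36 for replicate 1 and -0.14 for replicate 2. Pax7neg was between the replicates in 14 of the 22. Kdr, a receptor of vascular growth factor, had 313 and 83.3 CPM in Tw2neg and 74.2 CPM in Pax7neg, and Aqp1, a water channel of capillaries, 3443 and 1069 CPM against 1188 CPM. In both, Pax7neg was near replicate 2. Genes of pericytes and smooth muscle, 9 tested of 14, gave 1.56 between the replicates, with Myh11, smooth muscle myosin, at 482 and 162 CPM against 111 CPM. Rgs5, a pericyte gene, had 120 and 22.4 CPM against 40.3 CPM, one of the largest gaps between the replicates. Lymphocyte and antigen-presentation genes ran the opposite way. The median of replicate 1 minus replicate 2 was -1.21 over 15 B cell genes, -0.95 over 16 T and NK cell genes and -0.95 over 11 genes of dendritic cells and MHC class II. Cd79a, a chain of the B cell receptor complex, had 109 and 253 CPM in Tw2neg and 188 CPM in Pax7neg. Cd74, the invariant chain of MHC class II, had 2900 and 5317 CPM against 4016 CPM, and Lck, a T cell kinase, 63.3 and 124 CPM against 120 CPM. Pax7neg lay between the replicates in all 3, and no gene of these lists passed. Replicate 1 was thus the library richer in vessel genes and replicate 2 the one richer in lymphocyte genes.

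**Figure D3:**
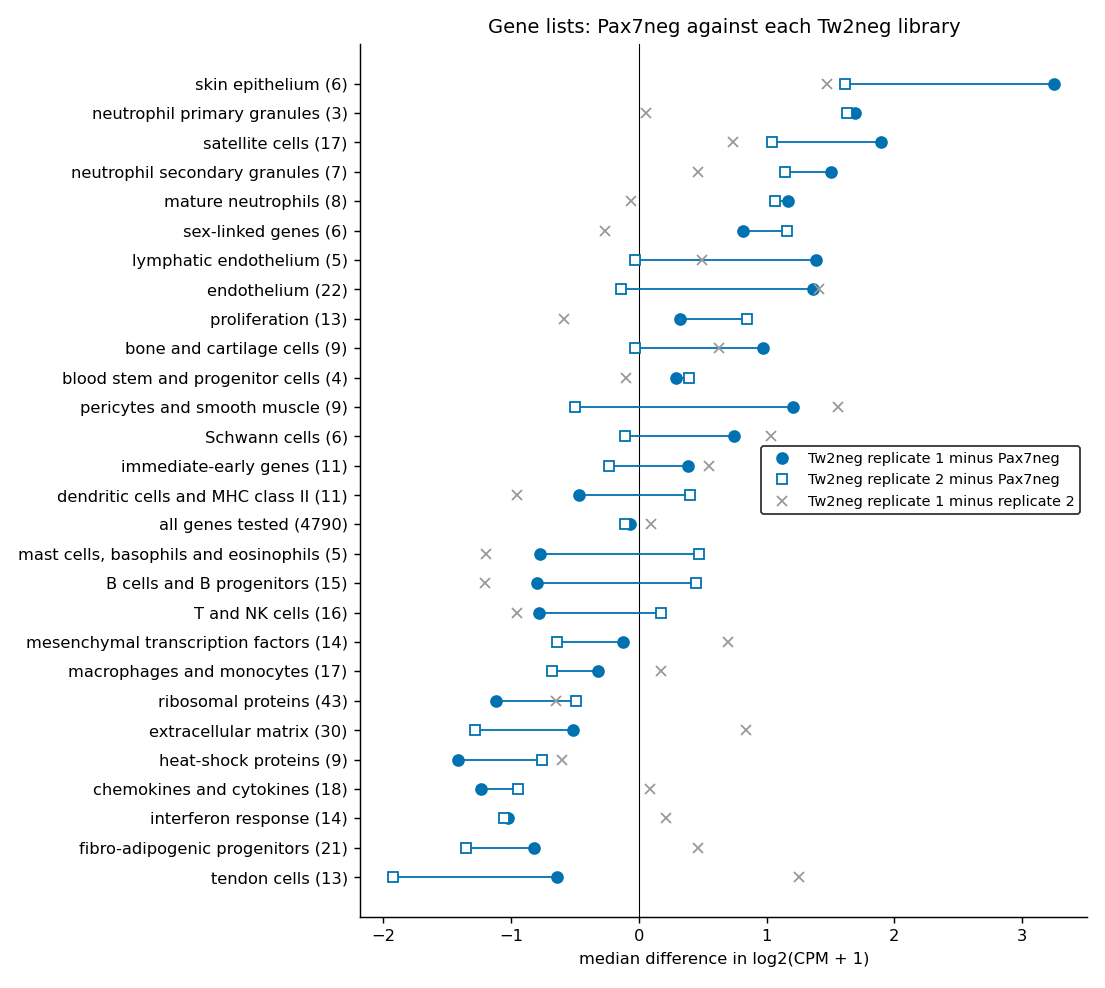
Median log2 difference of each gene list for Tw2neg replicate 1 minus Pax7neg, replicate 2 minus Pax7neg, and replicate 1 minus replicate 2 (crosses). Satellite cell, neutrophil and skin lists lie right of 0 and matrix, interferon and chemokine lists left of 0 against both replicates, while endothelium, pericytes, B cells and T cells have medians that differ in sign between the replicates.

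Genes of skin epithelium, mostly keratins, were higher in Tw2neg than in Pax7neg. Of 7 listed, 6 were tested, and Pax7neg was below both Tw2neg libraries in all 6, with a median difference of 2.40 (3.25 and 1.61 against replicates 1 and 2). The list summed to 400 and 125 CPM in Tw2neg and 35.0 CPM in Pax7neg. Krt5, a keratin of basal epidermis, had 114 and 40.6 CPM against 9.88 CPM (difference 2.67, limma adjusted p = 0.116), and Krt10, of upper layers, 69.4 and 12.4 CPM against 4.66 CPM. The Tw2neg replicates themselves were far apart, and none of the 6 passed. The Tw2pos libraries held 209 and 170 CPM of these genes and Pax7pos 6.58 CPM, so both fractions of the Twist2 line were above both of the Pax7 line. All 6 were called higher in Tw2pos than in Pax7pos, as were 33.9% of all genes. The part of skin carried into a digest was not tested.

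Cell cycle genes lay mostly higher in Tw2neg, and none passed. Of 13 tested of 28, Pax7neg was below both Tw2neg libraries in 9, against 27.7% of all genes, and above both in none, with a median of 0.52. Mki67, a marker of cycling cells, had 121 and 149 CPM in Tw2neg and 56.2 CPM in Pax7neg. Immediate-early genes, which rise within minutes of handling cells, had a median of 0.10 over 11 tested of 22, with Pax7neg above both Tw2neg libraries in 5 and below both in 4. Egr1 had 3071 and 1894 CPM in Tw2neg and 1561 CPM in Pax7neg, and Zfp36 3684 and 2291 CPM against 2695 CPM. Ier5 had 344 and 343 CPM against 886 CPM, with Pax7neg above both.

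Heat-shock and ribosomal genes were higher in the Pax7 line. Of 9 heat-shock genes tested of 13, Pax7neg was above both Tw2neg libraries in 8 and below both in none, with a median of -0.92. Hspa8, a chaperone of the cytosol, had 438 and 664 CPM in Tw2neg and 1220 CPM in Pax7neg, and Hspa5, the chaperone of the endoplasmic reticulum, 1542 and 1636 CPM against 2999 CPM. Cryab, a small heat-shock protein, had 46.5 and 57.5 CPM against 211 CPM (limma adjusted p = 0.103). Hmox1, the haem oxygenase induced by oxidative stress, had 502 and 914 CPM against 3367 CPM (difference -2.31, limma adjusted p = 0.158). The ribosomal list was drawn from genes that had passed the authors' rule, so members cut by that rule are not counted. Of its 43 genes, all tested, Pax7neg was above both Tw2neg libraries in 38 and below both in 1. The median was -0.85 (-1.12 and -0.49 against replicates 1 and 2). Rpl14 had 28.0 and 48.5 CPM against 179 CPM, whereas Rpl4 had 1147 and 1628 CPM against 1620 CPM. Ribosomal genes have many processed copies, so their reads are uncertain. None of the heat-shock or ribosomal genes passed. In the labelled cells 9 of 9 heat-shock genes and 39 of 43 ribosomal genes were called higher in Pax7pos, against 25.7% of all genes. The medians were -2.14 and -1.82 for Tw2pos minus Pax7pos. A gene could enter the selection through a gap between Pax7pos and Tw2neg, so these labelled counts are no separate support.

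Only 1 gene was called in the same direction in both fractions. Tmsb10, an actin-binding thymosin (chr6:72957347-72958748, minus strand), had 28.0 and 44.9 CPM in Tw2neg and 235 CPM in Pax7neg (difference -2.69, SE 0.37, limma adjusted p = 0.0483). In the labelled cells its difference was -1.81 (limma adjusted p = 0.0047). The other 10 of the 11 calls in unlabelled cells were also called between the labelled groups, in the opposite direction. The Tw2pos minus Pax7pos difference was -6.13 for Myod1, for example, and 5.23 for Mnda. Ptx3 and Timp1, higher in Pax7neg, were higher in Tw2pos by 1.27 and 1.50. Limma passed 1624 genes as higher in Tw2pos (33.9%) and 1229 as higher in Pax7pos (25.7%), where unlabelled cells had 11 calls. The authors' rule had brought in 4275 of the 4939 genes through a labelled group and not through Pax7neg. The gap between these counts, and the interaction share that follows, cannot be read apart from that selection. The difference between the 2 line differences, fitted as an interaction, passed for 1736 genes (36.2%), 615 of them positive (unlabelled less labelled) and 1121 negative. With TMM factors the split was 1076 positive and 967 negative, and with DESeq2 1332 and 898. Without Tw2pos replicate 1 or 2 the count was 935 or 939, and without Tw2neg replicate 1 or 2 it was 3106 or 2866. Of the 4790 genes, 2488 had the same sign in both fractions.

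**Figure D4:**
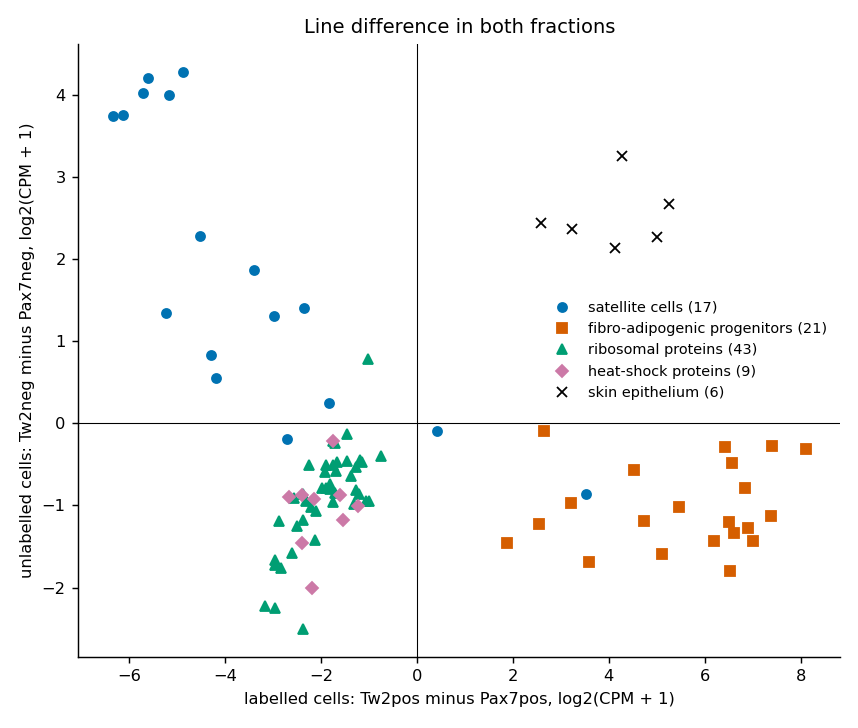
Difference between the lines in unlabelled cells (Tw2neg minus Pax7neg) against that in labelled cells (Tw2pos minus Pax7pos), on the log2(CPM + 1) scale, 1 point per tested gene of 5 lists. Satellite cell genes lie mostly upper left and the 21 fibro-adipogenic genes all lower right, so their sign differs between fractions, while the 6 skin genes lie upper right and the 9 heat-shock and nearly all of the 43 ribosomal genes lower left, with the same sign in both.

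The difference between the unlabelled groups also moved with transcript length. For genes with a median protein-coding transcript of at most 1000 nucleotides the median Tw2neg minus Pax7neg difference was -0.28 (727 genes), and for those above 6000 nucleotides it was 0.37 (307 genes). The bins between rose in order, through -0.23, -0.08, 0.05 and 0.20. Replicate 1 minus replicate 2 had a gradient of the same direction, from -0.01 to 0.44, and the labelled groups had 0.26 in the shortest and 0.69 in the longest bin, without a rise at each step. A length was found for 98.6% of the genes tested. The lists differ in length too: the median was 744 nucleotides for ribosomal genes and 1219 for chemokines, against 2398 over all genes, while matrix genes, also higher in Pax7neg, had 3575. The part of length in the list differences was not tested.

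**Figure D5:**
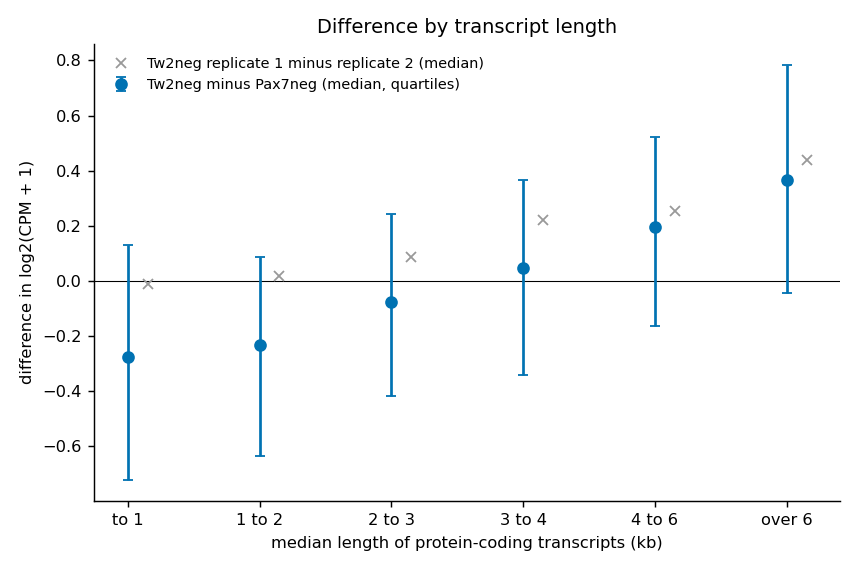
Log2(CPM + 1) difference by bin of transcript length in kb, with the median and quartiles over genes of Tw2neg minus Pax7neg (points and bars) and the median of Tw2neg replicate 1 minus replicate 2 (crosses). The median of Tw2neg minus Pax7neg climbs from -0.28 in the shortest bin to 0.37 in the longest, and the bars of neighbouring bins overlap.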

How the data were processed

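The deposited data are 2 tables. In the first, the authors' normalised counts (a signal scaled per library) cover 24062 genes in the Twist2 libraries. In the second, the authors' CPM cover 4939 genes, with the Twist2 groups as means and deposited log2 fold changes, which were not used. TopHat2 2.0.0, DESeq2 1.6.3 and GRCm38/mm10 are named per the submitters' processing notes. The sources used here do not give the read counter, the annotation or the strand setting, so overlapping and antisense genes are uncertain. Each library's values were whole multiples of 1 read within 0.01. For Pax7neg the step of 1 read is inferred, since its lowest value is 5 steps, so its read numbers and intervals rest on that step. CPM values per Twist2 library were rebuilt from these reads, and their means equal the deposited ones.

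Log2(CPM + 1) was fitted with limma 3.58.1 (R 4.3.3, mean-variance trend, 6 libraries, genes averaging 10 CPM or more, Benjamini-Hochberg, 2 residual and 5.75 prior degrees of freedom), with the difference of the line differences as an interaction. The planned test was kept. edgeR 4.0.16 and DESeq2 1.42.0 on recovered reads, other scalings, filters and left-out libraries were alternatives. Scripts were tested on simulated data. Poisson intervals cover counting error only. Positions are from GENCODE M21 and promoters from RefSeq (GRCm38.p6), in 1-based coordinates. Python 3.11.15, pandas 2.3.3, scipy 1.17.1, numpy 2.4.6 and matplotlib 3.10.9 were used.

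The members and the 33 gene lists were chosen with earlier results of these data known. Named genes are Pax7, Twist1 and Twist2, the 8 largest called differences each way (mean of at least 50 CPM, Pax7neg outside the Tw2neg range, no predicted genes), the 3 highest members and the largest called ones of each list, genes called alike in both fractions and the 4 largest gaps between the Tw2neg libraries. All other genes were chosen after their values were seen. Some genes that the rule names are not reported here.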

Additional observations from a re-analysis of the deposited data

Results flagged for a closer look

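For 9 genes called in unlabelled cells, the difference between the lines differed between unlabelled and labelled cells by the limma interaction at an adjusted p under 0.05. That interaction passed for 36.2% of the 4790 genes tested. The 9 genes were taken from calls on the Tw2neg minus Pax7neg difference, which is part of the value tested. Their passing is therefore no separate support. The value is the Tw2neg minus Pax7neg difference less the Tw2pos minus Pax7pos difference, in log2 units. It was 11.54 for Fam132b, 10.07 for Gal, 9.87 for Myod1, 9.79 for Asb5, 9.73 for Cdh15 and 9.15 for Fgfr4. It was -7.86 for Mnda, -4.29 for Timp1 and -4.10 for Ptx3. Each Pax7 group has 1 library, and the 2 differences share no library.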

How the results depend on the processing

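The count of genes called depended on the setting, from the 11 of the report to 0 with edgeR on recovered reads, where 711 had an unadjusted p under 0.05. It was 1 with a pseudocount of 10 CPM, with quantile normalization and with no variance trend, and 3 with no filter on level. It was 18 (7 higher in Tw2neg) at a mean of at least 50 CPM, 61 (28 higher) with TMM factors, 244 (146 higher) with DESeq2, 43 (19 higher) in the 3 unlabelled libraries alone and 44 (10 higher) among 1962 genes that the Twist2 libraries alone admit. Leaving out a replicate gave 43 to 1038, the lowest without Tw2pos replicate 1 (46 without Tw2pos replicate 2) and the highest without Tw2neg replicate 1 (855 without Tw2neg replicate 2). There the spread comes from 1 pair of libraries. All 11 genes were among those called with TMM, DESeq2, the 3 unlabelled libraries and each left-out replicate. All 11 kept their direction under each of these settings. The share higher in Tw2neg was 63.6% of the 11 calls, 45.9% with TMM and 28.2% without Tw2neg replicate 1. The median over all genes, -0.07, was 0.05 with TMM, 0.00 with quantile normalization and 0.15 with DESeq2. For the difference of the line differences, 1736 became 979 at 50 CPM, 958 with quantile normalization and 935 to 3106 when a replicate was left out (935 and 939 without Tw2pos replicates 1 and 2, 3106 and 2866 without Tw2neg replicates 1 and 2). The share of positive calls, 35.4%, was 52.7% of 2043 with TMM and 59.7% of 2230 with DESeq2. The cause of these shifts was not tested.

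Named genes that did not pass changed sign in 29 cases, by the Tw2neg minus Pax7neg difference. With DESeq2 it was Cd74 0.24, Cd79a 0.16, Kdm5c 0.15 and Lyz2 0.026. With TMM factors it was Cd74 0.089 and Kdm5c 0.078. With edgeR it was Cd74 0.033. With quantile normalization it was Cd74 0.74, Col4a1 0.049, Kdm5c 0.093, Lyz2 0.29 and Rpl4 0.26. Leaving out Tw2neg replicate 1 or 2 changed the sign of genes whose Pax7neg value lies between or near the replicates, with ranges of Acta1 -0.093 to 0.55, Aqp1 -0.15 to 1.53, Ccl22 -0.44 to 1.98, Cd74 -0.47 to 0.40, Cd79a -0.78 to 0.43, Col20a1 -1.60 to 0.42, Col4a1 -0.85 to 0.10, Il1b -0.11 to 0.67, Kdm5c -0.14 to 0.059, Lck -0.91 to 0.046, Pdgfra -0.59 to 0.025, Rgs5 -0.82 to 1.55, Rpl4 -0.50 to 0.0077, Sdc4 -0.062 to 0.56, Tcf4 -0.18 to 0.52, Timp3 -0.41 to 0.65 and Zfp36 -0.23 to 0.45. Among the 85 named genes, the difference moved by over 1.5 times without a change of sign in 17 with DESeq2, 17 with quantile normalization, 9 with a pseudocount of 10 CPM, 8 with TMM, 5 with edgeR, and 16 and 25 without Tw2neg replicates 1 and 2. Of the list medians, quantile normalization moved that of satellite cells to 2.19, of matrix genes to -0.42 and of immediate-early genes to 0.57. DESeq2 moved that of mesenchymal factors to -0.30, of macrophage genes to -0.37 and of blood progenitor genes to 0.69. Immediate-early genes had 0.23 with TMM, 0.30 with DESeq2 and -0.23 without Tw2neg replicate 1, skin genes 1.53 with a pseudocount of 10 CPM, and mesenchymal factors and macrophage genes -0.12 and -0.32 without Tw2neg replicate 2.

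The titles give the Tw2neg and Tw2pos libraries the same numbers, without saying what a number marks. Chosen after seeing the data, a fit of the difference of the line differences with a replicate block, in which the number pairs the fractions of a line, called 2050 genes (737 positive), 1728 of them among the 1736, with 1 residual degree of freedom. Across genes, the replicate 1 minus 2 differences of Tw2neg and Tw2pos correlated at 0.34. Tw2neg minus Pax7neg itself could not be paired, since each Pax7 group has 1 library.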

Other observations

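Some genes of cells that no call in the report touches had the following levels. Lymphatic vessel genes were split: Lyve1, a hyaluronan receptor that some macrophages also carry, had 70.1 and 65.1 CPM in Tw2neg and 25.8 CPM in Pax7neg, and Pdpn, podoplanin, 82.7 and 87.3 CPM against 139 CPM. Pmp22, a myelin protein of Schwann cells that fibroblasts also express, had 283 and 154 CPM against 286 CPM. Pf4, a platelet chemokine, had 37.4 and 19.8 CPM against 70.7 CPM. None of these genes passed the limma test.

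The largest gaps between the Tw2neg libraries at a mean of at least 50 CPM were in genes of several cell types. Ccl22, a chemokine of dendritic cells, had 21.6 and 120 CPM, with 29.6 CPM in Pax7neg. Igj, the antibody joining chain of plasma cells, had 63.6 and 259 CPM, with 275 CPM in Pax7neg. Col20a1, a collagen, had 108 and 25.8 CPM, with 80.5 CPM in Pax7neg.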
